A study of Taeniopygia guttata with 22 samples.

Results

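The endocannabinoid system was described here through the genes for its main receptor and its main enzymes in RA (robust nucleus of the arcopallium), a song nucleus of the zebra finch (Taeniopygia guttata). The genes were taken by symbol from the deposited table of read counts and are CNR1 (gene ID 751607), DAGLA (100223947), DAGLB (100222160), MGLL (100224028) and NAPEPLD (100232210). FAAH, the sixth gene looked for, is not analysed here, so 5 of the 6 genes were followed among the 21786 genes with an ID in the table. All 5 passed the filter on low counts, lie on autosomes and had at least 690 reads in every library.

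The forebrain song pathway leaves for the brainstem through RA. In males this projection drives song, and in females, which do not sing, RA regresses during development. Endocannabinoids are lipid messengers made on demand. A postsynaptic neuron makes 2-arachidonoylglycerol (2-AG) with the diacylglycerol lipases DAGLA and DAGLB, and 2-AG then acts backwards on the cannabinoid receptor CB1, the product of CNR1, on axon terminals, where it lowers transmitter release. Monoglyceride lipase, encoded by MGLL, breaks 2-AG down. NAPE-PLD, encoded by NAPEPLD, makes a second family of lipids, the N-acylethanolamines, to which anandamide belongs. CB1 is known from several song nuclei of this species, RA among them.

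The series held 22 libraries from untreated birds of both sexes at 20 and 50 days posthatch. There were 5 females and 5 males at 20 days, and 7 females and 5 males at 50 days. Birds were killed shortly after the lights came on and none had been seen to sing. RA was cut from stained sections by laser capture, and cDNA was amplified from 1 ng of RNA with a SMART-Seq v4 kit. Each library has a brain id of its own, except that the ids of female 50-day replicates 5 and 6 share a number, so that these may come from a single bird.

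Total counts ran from 16.17 M to 65 M, in a shallow set of 13 libraries up to 22.35 M and a deep set of 9 from 49.12 M. The sets were not balanced over the groups. All 5 females at 20 days were deep and all 5 males at 20 days shallow, so that sex and depth cannot be told apart at that age. At 50 days 1 of 7 females and 3 of 5 males were deep. Age and depth were thus also tangled, with a smaller deep share at 50 than at 20 days in females and a larger one in males. The glutamatergic markers SLC17A6 and ETV1 were read in every group, at mean levels of 537 to 662 and of 403 to 629 counts per 1e6 counts (CPM). All 6 glutamatergic markers listed summed to 1480 to 1941 CPM in 20-day females and 1500 to 2098 in 20-day males. At 50 days they summed to 1542 to 2165 CPM in females and 1999 to 2643 in males. NEFM had means of 445 CPM in females and 814 in males there, and NEFH of 202 and 239. SLC17A6 had 537 and 555, and ETV1 559 and 629, while FEZF2 had 31.9 and 27.4 and BCL11B 24.8 and 16.2. Of the 6, 1 was called in that comparison, in the sense given below (16.7%, against 33.1% of all genes). The 6 striatal markers summed to 169.6 to 343.8 CPM over the libraries. Group means of PENK were 89.9 to 142 CPM. DRD1 had means of 121 and 114 CPM in females and males at 20 days, and of 88.4 and 58.2 at 50 days. In the same order PPP1R1B had means of 5.19 and 5.57 CPM at 20 days, and of 6.58 and 1.53 at 50 days.

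Levels are in CPM after scaling, as mean ± SD. A gene was called higher or lower where the edgeR quasi-likelihood test gave a Benjamini-Hochberg adjusted p under 0.05 over all 16004 genes tested. CPM is not corrected for gene length, so levels are compared between groups and never between genes. The comparisons share libraries: males at 50 days enter both the 50-day sex difference and the male age change.

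The receptor and the diacylglycerol lipases were lower in 50-day males than in females of that age. At 50 days 4 of the 5 genes were called, where 33.1% of all genes were. CNR1, DAGLA and DAGLB were lower in males, against 17.2% of all genes, and NAPEPLD was higher, against 16%. MGLL was not called. At 20 days none of the 5 genes was called between the sexes, where 2.11% of all genes were. With DESeq2 and with voom the count at 20 days was also 0, and at an unadjusted p under 0.05 edgeR gave 1, DAGLB.

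With age, CNR1 and DAGLA fell and NAPEPLD rose in males, so that 3 of 5 genes were called against 26.7% of all genes (lower 14.2%, higher 12.5%). In females NAPEPLD alone was called, higher at 50 days, against 14.9% of all genes (higher 6.80%, lower 8.05%). The male and female age changes differed in 1 of 5 genes, CNR1, where 12.3% of all genes differed (6.57% with a lower male change and 5.75% with a higher one). The median log2 difference of the 5 genes at 50 days was -0.36, against -0.03 over all genes. The medians at 20 days were -0.10 and -0.01, those of the male age change -0.12 and -0.01, and those of the female age change 0.17 and 0.01. For the interaction they were -0.11 and -0.03. In tissue samples such as these, fewer cells of a type and less RNA per cell cannot be told apart.

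**Figure D1:**
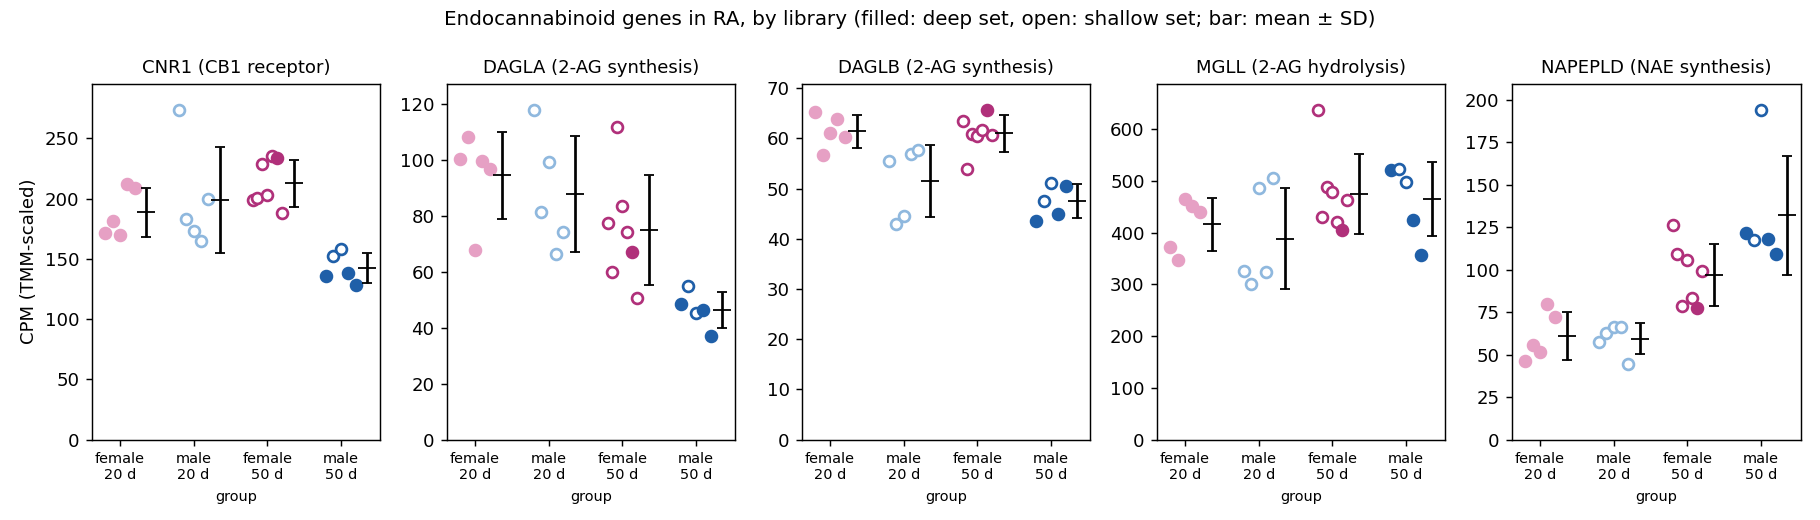
Level of each gene in CPM (y axis, from 0) in every library, by group (x axis); points are libraries, filled for the deep and open for the shallow set, and the bar and whiskers are the group mean ± SD. Every 50-day male lies below every other library for CNR1, while for MGLL the 4 groups overlap (NAE in a panel title stands for N-acylethanolamine).

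CNR1 encodes CB1, a receptor coupled to inhibitory G proteins. Its levels in the 20-day females were 169.8, 172, 181, 208.5 and 212.5 CPM. In the 20-day males they were 165, 173, 183, 199 and 274 CPM. In the 50-day females the lowest was 188, the median 203 and the highest 235.5 CPM. All these libraries lay above those of the 50-day males, which read 128, 136, 138, 153 and 158.5 CPM. The group means were 189 ± 20.3 in 20-day females, 199 ± 43.8 in 20-day males, 213 ± 19.3 in 50-day females and 143 ± 12.5 in 50-day males (SD; n = 5, 5, 7 and 5). The 3 upper groups overlap, and only the 50-day males stand apart from each of the others.

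CNR1 was 1.49-fold lower in males than in females at 50 days (log2 difference -0.58, SE 0.11, 95% interval -0.80 to -0.35, edgeR adjusted p 0.000238). The groups did not overlap, as was so for 16.1% of all genes. It fell with age in males by 0.48 on the log2 scale (SE 0.11, adjusted p 0.00321), again without overlap, as for 18.1% of all genes. In females the age change was 0.17 (95% interval -0.05 to 0.39, adjusted p 0.303), and at 20 days the sexes differed by 0.07 (interval -0.16 to 0.31, adjusted p 0.921). The male age change was lower than the female by 0.65 (SE 0.16, interval -0.97 to -0.33, adjusted p 0.00896). That last call was lost when the depth set entered the model (-0.58, adjusted p 0.326). The 50-day sex difference and the male age change were kept with that term but lost in the shallow libraries alone (-0.41, adjusted p 0.125, and -0.33, adjusted p 0.257), where 2 males at 50 days are left.

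Within the depth sets the 50-day levels of CNR1 lay in the same order. The 3 deep males read 128 to 138 CPM and the deep female 234, and the 2 shallow males read 153 and 158.5 against 188 to 235.5 in 6 shallow females. Markers of GABAergic interneurons, some of which carry much CB1 on their terminals in mammals, were also in part lower in the 50-day sex comparison and the male age comparison. At 50 days 9 of the 11 markers were lower in males, against 17.2% of all genes, and none higher. CCK and NPY were not called, at 3.23 and 124 CPM in males and 7.71 and 147 in females. The summed level of the 11 was 1103 to 1632 CPM in males against 2063 to 2645 in females. At 20 days the sums were 1704 to 1882 in males and 1719 to 1955 in females. None of the 11 was called there, against 2.11% of all genes. With age 6 of the 11 fell in males, against 14.2% of all genes. In females 5 rose, against 6.80%, in a comparison where CNR1 was not called. No marker of that list was at 0 in a whole group. The part of these cells in the CNR1 difference was not tested.

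DAGLA encodes the lipase that supplies most 2-AG at synapses of the mammalian brain. The 20-day females read 67.9, 96.9, 99.8, 100.2 and 108 CPM, and the 20-day males 66.3, 74.3, 81.4, 99.2 and 118. The 50-day females ran from 50.6 through a median of 74.4 to 112 CPM. The 50-day males were lowest, at 36.9, 45.2, 46.2, 48.4 and 54.8 CPM. The means followed that order, at 94.6 ± 15.6, 87.8 ± 20.7, 75.0 ± 19.7 and 46.3 ± 6.46 CPM. Neighbours overlap all along it, and the 50-day males are apart from both groups at 20 days but share the range of 1 female of their own age.

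DAGLA showed the largest decrease among the 5 genes, 1.90-fold in males from 20 to 50 days (log2 -0.92, SE 0.18, edgeR adjusted p 0.000559). The ages did not overlap, as was so for 18.1% of all genes. At 50 days DAGLA was 1.62-fold lower in males than in females (-0.70, SE 0.17, adjusted p 0.00291). Both calls were kept with the depth set as a term (adjusted p 0.0137 and 0.0238). In the shallow libraries alone the values were -0.79 and -0.60 and neither was called (adjusted p 0.0846 and 0.164). In the deep alone the sex difference was -0.62 (adjusted p 0.178). The female age change was -0.34 (interval -0.68 to 0.01, adjusted p 0.186), and it passed the threshold without female 50-day replicate 3 (-0.46, adjusted p 0.0497). The age changes of the sexes were not shown to differ (-0.59, interval -1.10 to -0.08, adjusted p 0.126, and -0.32 with the depth term, adjusted p 0.792).

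DAGLB encodes the second diacylglycerol lipase, which in mice serves microglia and macrophages as well as neurons. Females read 56.8, 60.3, 61.1, 63.9 and 65.2 CPM at 20 days, and from 54.0 through 60.8 to 65.7 at 50 days. Males read 43.0, 44.6, 55.6, 56.8 and 57.7 CPM at 20 days, and 43.5, 44.9, 47.5, 50.5 and 51.1 at 50 days. Every 50-day male therefore lay below every female of either age, while 20-day males and females overlapped. Between the sexes at 50 days 16.1% of all genes showed no overlap. The means were 61.5 ± 3.30 and 61.0 ± 3.62 CPM in females at 20 and 50 days, and 51.5 ± 7.14 and 47.5 ± 3.35 in males.

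At 50 days DAGLB was 1.29-fold lower in males (log2 -0.36, SE 0.08, edgeR adjusted p 0.00172). At 20 days the difference was -0.25 (interval -0.44 to -0.07), which gave an unadjusted p of 0.00923 and an adjusted p of 0.222. The change in that sex difference between the ages was -0.11 (adjusted p 0.622). Neither age change was called: it was -0.12 in males (interval -0.30 to 0.07) and -0.01 in females (interval -0.18 to 0.16). The 50-day call was kept with the depth set as a term (adjusted p 0.00745) and lost in the shallow or the deep libraries alone, where the difference was -0.28 and -0.51 (adjusted p 0.237 and 0.0804). Microglial markers summed to 55.2 to 94.5 CPM in males and 71.3 to 160 in females at 50 days. Where 33.1% of all genes were called, none of 6 microglial markers tested was. At an unadjusted p under 0.05 edgeR gave 1 of these, C1QA, and DESeq2 and voom called 0.

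MGLL encodes the lipase that ends most 2-AG signals in the mammalian brain. It read 348.3, 373.4, 440.6, 452.5 and 465.6 CPM in 20-day females and 301.5, 324, 326.5, 486 and 506 in 20-day males. The 50-day females ran from 406 through 463 to 637.5 CPM, and the 50-day males read 358, 425, 499, 521 and 523. The groups overlapped in every comparison. The means were 416 ± 51.9 and 389 ± 98.5 CPM at 20 days in females and males, and 475 ± 77.9 and 465 ± 72.1 at 50 days. No comparison called MGLL: the 50-day sex difference was -0.03 on the log2 scale (interval -0.32 to 0.26, edgeR adjusted p 0.89), and the age changes were 0.26 in males (-0.05 to 0.57) and 0.19 in females (-0.10 to 0.48). The interval at 50 days covers male levels from 0.80 to 1.20 times the female level.

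NAPEPLD encodes a phospholipase D that releases N-acylethanolamines from membrane lipids. It read 46.0, 51.8, 55.4, 72.0 and 79.6 CPM in 20-day females and 44.3, 57.5, 62.9, 66 and 66.3 in 20-day males. The 50-day females ran from 77.6 through 99.2 to 127 CPM. The 50-day males read 109, 117, 118, 122 and 194, all above every 20-day bird. The means were 61.0 ± 14.2 and 59.4 ± 9.18 CPM at 20 days in females and males, and 97.1 ± 18.3 and 132 ± 35.0 at 50 days. The groups at 20 days overlap, as do those at 50 days and the females of the 2 ages. Between the sexes at 20 days the groups overlapped for all 5 genes, where 3.61% of all genes showed no overlap. Between the ages in males 18.1% of all genes showed no overlap.

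NAPEPLD rose with age 2.22-fold in males (log2 1.15, SE 0.18, edgeR adjusted p 4.25e-05). This call was kept with the depth set as a term (1.38, adjusted p 3.6e-05) and in the shallow libraries alone. In females it rose 1.59-fold (0.67, SE 0.16, adjusted p 0.00801), which was lost with the depth term (0.32, adjusted p 0.428) and in the deep libraries alone (0.34, adjusted p 0.638). At 50 days it was 1.36-fold higher in males (0.44, SE 0.16, adjusted p 0.038). That call was lost without male 50-day replicate 3 (0.26, adjusted p 0.199) and without female 50-day replicate 3, 5 or 6 (adjusted p 0.0755, 0.0713 and 0.0757). It was also lost with female replicates 5 and 6 summed (adjusted p 0.0716). The difference between the age changes of the sexes was 0.48 (interval -0.02 to 0.98, adjusted p 0.205), and 1.06 with the depth term (adjusted p 0.186), so that they were not shown to differ.

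Oligodendrocyte markers moved with age as well: 4 of 5 tested rose in each sex, against 12.5% of all genes in males and 6.80% in females. Their summed level was 134 to 1326 CPM in females and 133.5 to 1132 in males at 20 days, and 2692 to 6485 in females and 6959 to 12270 in males at 50 days. None of the 5 was at 0 in a whole group, and their part in the NAPEPLD rise was not tested. In the bTaeGut7.mat annotation NAPEPLD overlaps ARMC10, and MGLL overlaps KBTBD12 and a noncoding gene, LOC121470636, not analysed here. The strand used in counting is not given in the sources used here, so reads of such pairs may be shared. ARMC10 had means of 15.4 to 21.9 CPM over the groups and was not called in any comparison. Its 50-day sex difference was 0.51 on the log2 scale, with males higher (edgeR unadjusted p 0.0419, adjusted p 0.103). The means of KBTBD12 were 0.569 to 3.52 CPM. KBTBD12 was higher in 50-day males than in females (log2 1.55, edgeR adjusted p 0.0347) and rose with age in males (2.65, adjusted p 0.00415).

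**Figure D2:**
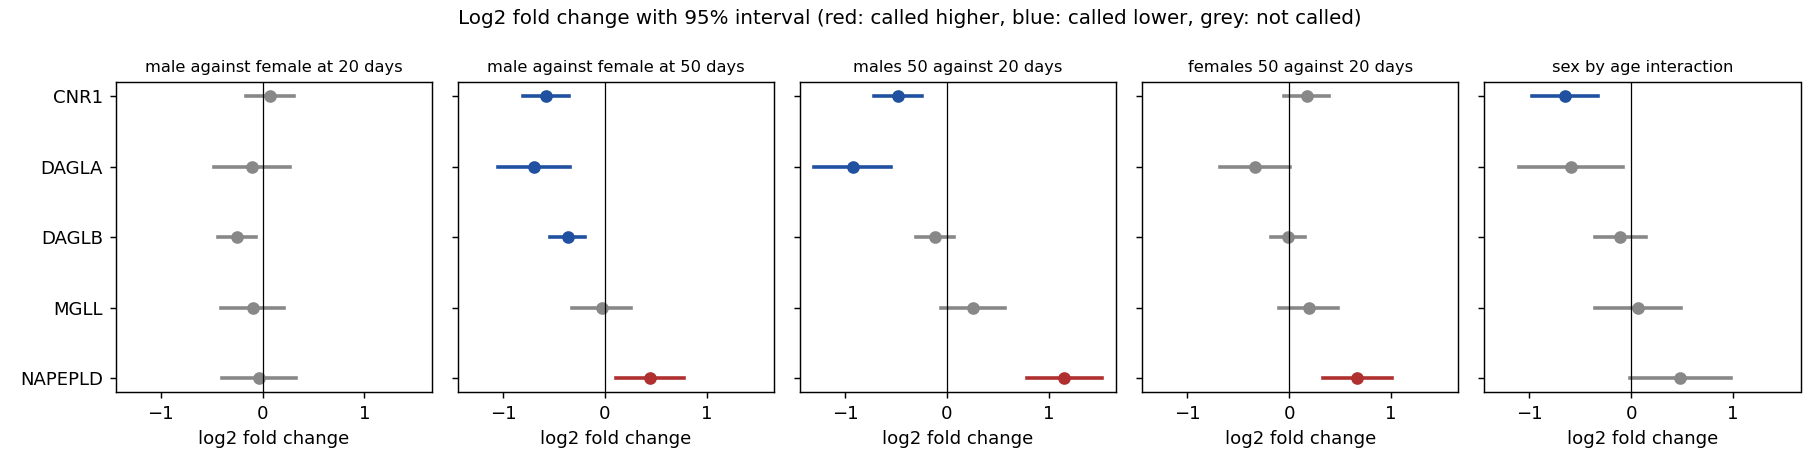
Log2 fold change of each gene (x axis) with its 95% interval in each comparison (panels), red where called higher, blue where called lower and grey where not called. CNR1, DAGLA and DAGLB lie to the left of 0 at 50 days, NAPEPLD to the right, and the MGLL intervals span 0 in every comparison.

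**Figure D3:**
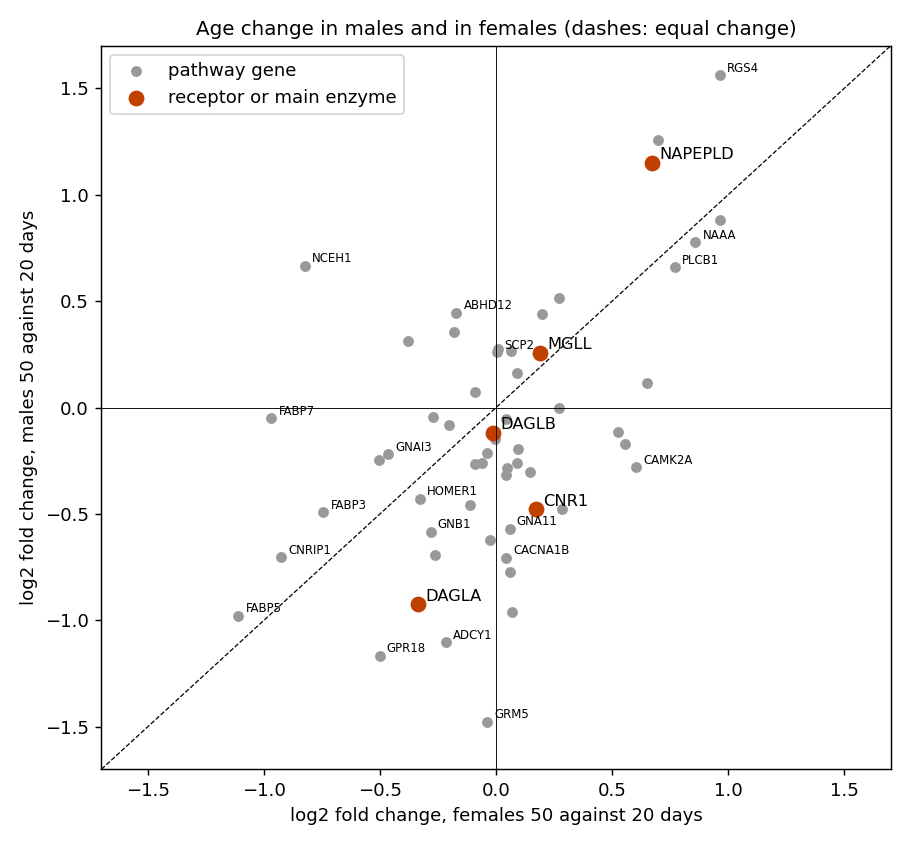
Log2 fold change from 20 to 50 days in females (x axis) and in males (y axis) for CNR1, DAGLA, DAGLB, MGLL and NAPEPLD (orange) and the other tested pathway genes (grey), with a dashed line where both changes are equal. NAPEPLD lies at 0.67 in females and 1.15 in males, and CNR1 at 0.17 and -0.48.

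Ratios of counts within a library show how the genes moved against each other. They are not corrected for length and are read across groups only. The ratio of MGLL, which degrades 2-AG, to DAGLA, which makes it, was 4.58 ± 1.40 in 20-day females and 4.62 ± 1.52 in 20-day males. It was 6.62 ± 1.66 in 50-day females and 10.1 ± 0.812 in 50-day males, where the lowest bird (9.20) lay just above the highest female (9.16). The ratio of NAPEPLD to DAGLA was 0.655 ± 0.157 and 0.705 ± 0.195 at 20 days in females and males, 1.38 ± 0.445 in 50-day females and 2.89 ± 0.836 in 50-day males. All 50-day males exceeded every other library in it, with 2.14 as their lowest value and 1.96 as the highest elsewhere. The ratio of DAGLA to DAGLB went from 1.54 ± 0.285 and 1.74 ± 0.484 at 20 days to 1.23 ± 0.318 and 0.983 ± 0.175 at 50 days, with overlap between the groups of each age. These ratios rest on the same counts as the tests above and were given no test.

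Over the 22 libraries log2 levels of CNR1 and DAGLA had a Pearson r of 0.70, and 0.56 after group means were taken out. For DAGLA and NAPEPLD r was -0.65, but -0.01 with group means out. The libraries share their groups and depth sets, so these values only describe. By the same measure, among 9742 genes with a symbol, PITPNM2 (r 0.907), RC3H2 (0.901) and PPP6R3 (0.894) were most like CNR1, with 0.737, 0.792 and 0.838 without group means. Most like DAGLA were UBE2K (0.949), CLIP2 (0.949) and MRTFA (0.946), which kept 0.859 to 0.875 without group means. For DAGLB they were HP1BP3 (0.814), SENP6 (0.809) and WDFY1 (0.792), which fell to 0.344, 0.637 and 0.476 without group means. For MGLL they were SMTNL2 (0.774), MEIS1 (0.751) and FOXO4 (0.692), with 0.744, 0.704 and 0.622 without them. For NAPEPLD they were PPP2R3B (0.906), CRYAB (0.905) and CTSB (0.899), which fell to 0.54 to 0.634 without group means.

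Other genes of the pathway were read as 6 lists, with 52 genes tested of 66 listed. At 50 days 25 of the 52 (48.1%) were called between the sexes, 10 higher and 15 lower in males, against 33.1% of all genes. At 20 days 1 of 52 was called (1.92% against 2.11%), the fatty acid binding protein gene FABP3, higher in males. Its adjusted p of 0.0492 passed the threshold no longer when any of 17 libraries was left out. With age 22 of 52 (42.3% against 26.7%) were called in males, 16 of them lower, and 14 of 52 (26.9% against 14.9%) in females, 9 of them lower. The age changes differed between the sexes in 11 of 52 (21.2% against 12.3%). Of these, the 8 with the smallest p in their lists were refitted with the depth set as a term. That fit lost 7 of the 8 calls, all but NCEH1. Over all genes it called 72, against 1971 without the term.

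Genes listed around the diacylglycerol lipases, most of them of Gq protein and phospholipase C signalling, were in part lower in 50-day males. Of 12 tested, 5 were lower and 1 higher (50% called, against 33.1% of all genes), with a median log2 difference of -0.33. GRM5, the metabotropic glutamate receptor that triggers 2-AG release at many synapses, was at 42.1 ± 11.8 CPM in males and 110 ± 18.1 in females, 2.61-fold lower (edgeR adjusted p 6.69e-07). The kinase gene CAMK2A, listed without a direction of action on these lipases, was at 417 ± 60.7 against 1081 ± 222 CPM (2.59-fold lower, adjusted p 3.52e-08). The G protein gene GNA11 was at 61.3 ± 5.94 against 117 ± 18.1 CPM (1.91-fold lower, adjusted p 2.62e-06). None of these 3, named for their small p, overlapped between the sexes, as was so for 16.1% of all genes. The gene that was higher was HOMER3, a scaffold of metabotropic receptors, named after its value was seen (25.2 against 13.97 CPM, adjusted p 3.74e-05).

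In males GRM5 and GNA11 also fell with age (GRM5 from 117 to 42.1 CPM, adjusted p 1.02e-06). PLCB1, a phospholipase C, rose in both sexes, from 281 to 444 CPM in males (adjusted p 0.00104) and from 275 to 470 in females (adjusted p 0.000364). CAMK2A rose in females from 712 to 1081 CPM (adjusted p 0.00232), a call lost with the depth set as a term (adjusted p 0.0952). The age changes of GRM5, CAMK2A and GNA11 differed between the sexes (log2 -1.44, -0.88 and -0.63, adjusted p 0.000288, 0.00305 and 0.0182), and all 3 calls were lost with that term. With it the values were -0.84, -0.73 and -0.38 (adjusted p 0.239, 0.284 and 0.613).

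**Figure D4:**
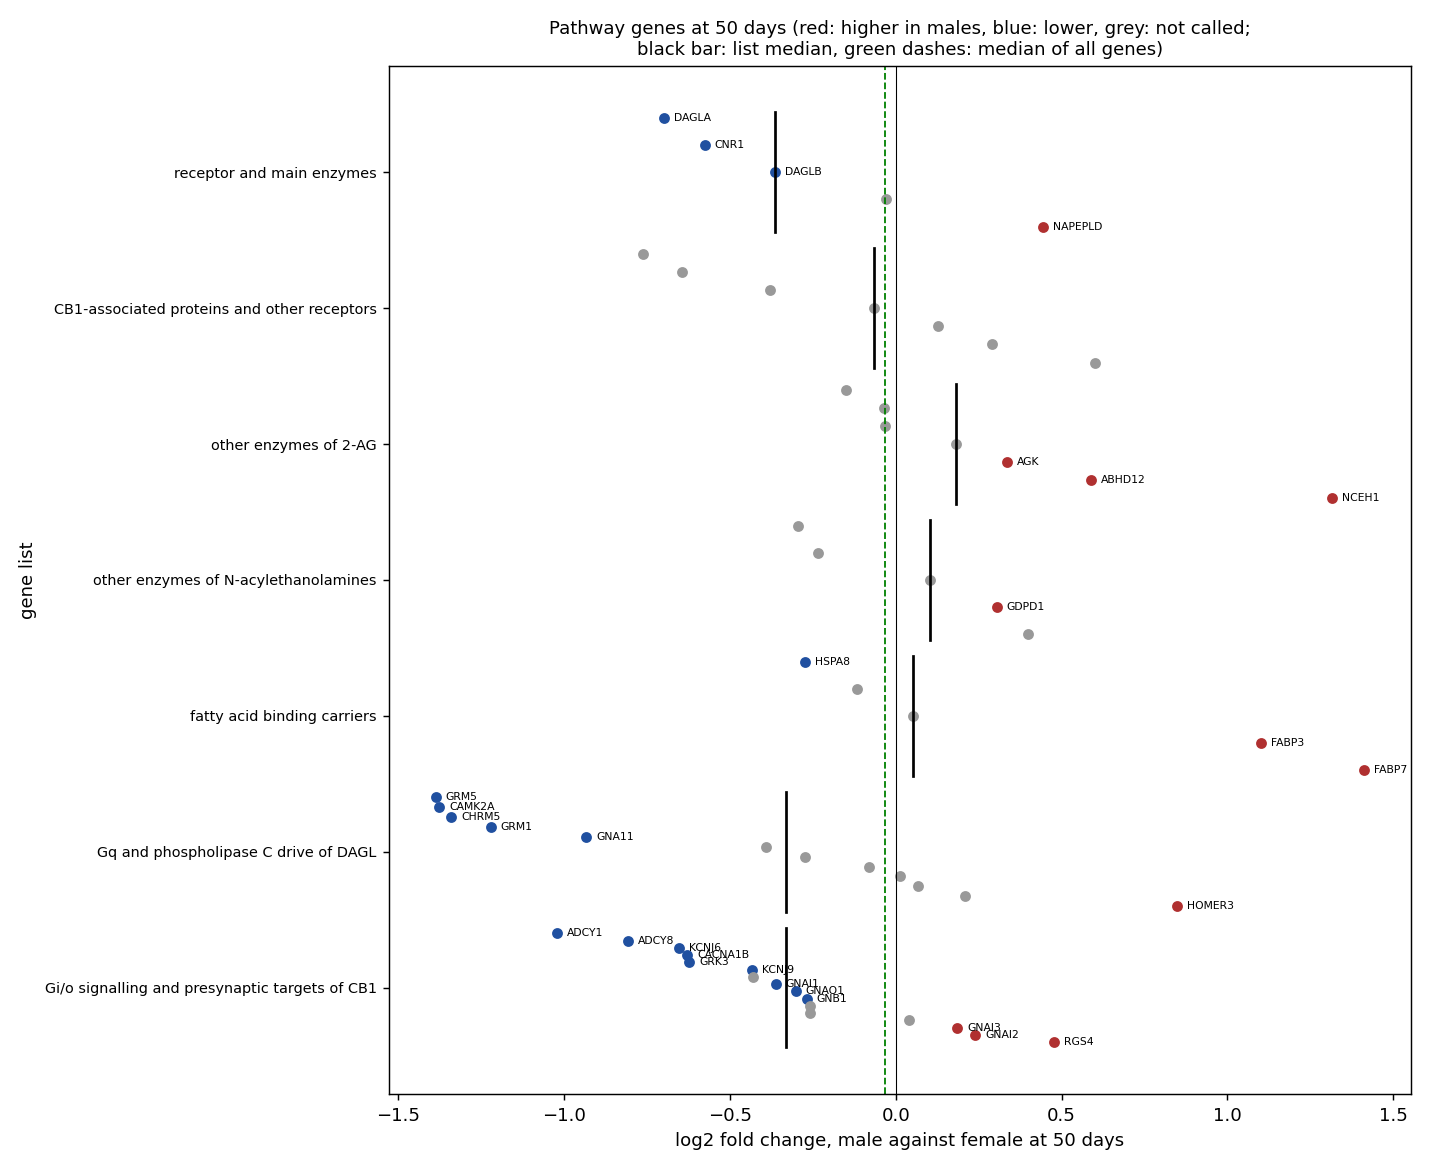
Log2 fold change between males and females at 50 days (x axis) for each tested gene, by pathway list (y axis); colour marks genes called higher or lower, black bars are list medians and the dashed line is the median of all genes. The Gq and Gi/o lists have medians of -0.33, and the other 2-AG enzymes one of 0.18.

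Downstream of CB1, 16 genes of inhibitory G protein signalling and presynaptic targets were tested. At 50 days 9 were lower in males, against 17.2% of all genes, and 3 higher, against 16% (75% called, against 33.1%). KCNJ6, a G protein gated potassium channel, was at 47.8 ± 3.25 against 75.2 ± 9.31 CPM (1.57-fold lower, edgeR adjusted p 3.2e-06). ADCY1, an adenylyl cyclase, was 2.03-fold lower (28.6 against 58.0 CPM, adjusted p 2.47e-05), and GRK3, a receptor kinase, 1.54-fold lower (140.1 against 216 CPM, adjusted p 0.000523). The GRK3 call was lost in the shallow libraries alone. With age 10 of the 16 fell in males and 1 rose, where 14.2% and 12.5% of all genes did. The one that rose was RGS4, which speeds the switching off of Gi proteins: it went from 276 to 814 CPM in males (adjusted p 1.15e-07) and from 299.6 to 584 in females (adjusted p 7.64e-05). GNB1, a G protein subunit, fell in both, from 1045 to 697 and from 1020 to 839 CPM (adjusted p 2.22e-07 and 0.00119).

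In the list of proteins that bind CB1 and of other receptors for these lipids, none of 7 was called between the sexes at 50 days. Of all genes 33.1% were. At an unadjusted p under 0.05 edgeR gave 3 (CNRIP1, SGIP1 and TRPV1), DESeq2 called 2 and voom 1. CNRIP1, whose product binds the tail of CB1, fell with age in both sexes, from 259 ± 36.2 to 159 ± 26.3 CPM in males (1.63-fold, adjusted p 0.000348) and from 247 ± 25.4 to 130 ± 23.5 in females (1.90-fold, adjusted p 2.36e-05). The ages did not overlap in either sex, in females as for 7.46% of all genes. Its age changes were not shown to differ (adjusted p 0.464). GPR18 fell in males (from 2.99 to 1.32 CPM, adjusted p 0.0121), a call lost without male 20-day replicate 4 (adjusted p 0.072).

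Of 7 other enzymes that act on 2-AG or its relatives, 3 were higher in 50-day males and none lower (42.9% called, against 33.1% of all genes). ABHD12, a second 2-AG hydrolase, was at 311 ± 19.7 against 206 ± 17.5 CPM (1.505-fold higher, adjusted p 3.14e-06). NCEH1, an ether lipid hydrolase, was at 227 ± 71.7 against 91.1 ± 17.6 CPM (2.49-fold higher, adjusted p 5.94e-06), and AGK, an acylglycerol kinase, at 62.8 against 49.8 (adjusted p 0.0299). The AGK call was lost without male 50-day replicate 3 or 4 or female 50-day replicate 5 or 6 (adjusted p up to 0.113). NCEH1 rose with age in males (from 143 to 227 CPM, adjusted p 0.0133) and fell in females (from 161 to 91.1, adjusted p 0.00309). The age changes of NCEH1 differed by 1.49 on the log2 scale (adjusted p 0.000835), which held with the depth set as a term (adjusted p 0.0065). ABHD12 also rose in males (from 228 to 311 CPM, adjusted p 0.000313).

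Markers of astrocytes and of vessels moved with these enzymes in 50-day males. Of 7 astrocyte markers tested 4 were higher and none lower (57.1% called, against 33.1% of all genes). Their sums were 5842 to 7310 CPM in males and 3604 to 4062 in females. Of 7 endothelial and mural markers 4 were higher and none lower (57.1% called), with sums of 429.5 to 604 against 230.2 to 330.4 CPM. At 20 days the astrocyte sums were 4207 to 5927 in males and 3469 to 4424 in females, and the vessel sums 277 to 387 and 310.5 to 359. None of these markers was called between the sexes at that age, where 2.11% of all genes were. There edgeR gave 4 astrocyte markers and 1 vessel marker at an unadjusted p under 0.05. DESeq2 and voom each called 1 astrocyte marker and no vessel marker. No marker of either list was at 0 in a whole group, and the part of these cells was not tested.

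Among 5 other enzymes of N-acylethanolamines, GDPD1 was higher in 50-day males (452 against 366 CPM, adjusted p 0.0166), a call lost with the depth set as a term (adjusted p 0.0619) and without male 50-day replicate 5 (adjusted p 0.0823). NAAA, the acid amidase that degrades these lipids, rose with age in females (from 12.9 to 23.4 CPM, adjusted p 0.0346), a call lost with the depth set as a term (log2 0.94 in place of 0.86, adjusted p 0.153) and without any of 6 libraries. None of the 5 was called with age in males, against 26.7% of all genes. There edgeR gave 2 of the 5 at an unadjusted p under 0.05, DESeq2 called 2 and voom 1. Among 5 lipid carriers, FABP7 (1835 against 689.6 CPM, adjusted p 3.53e-05) and FABP3 (35.5 against 16.6, adjusted p 0.00025) were higher in 50-day males and HSPA8 lower (492 against 595, adjusted p 0.0476). The HSPA8 call was lost with the depth set as a term (adjusted p 0.149) and without any of 16 libraries. FABP5, also a carrier, fell with age in both sexes, from 1639 to 831 CPM in males (adjusted p 0.00336) and from 1944 to 900.5 in females (adjusted p 0.00124). The male call of FABP5 was lost with the depth set as a term (adjusted p 0.0688).

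**Figure D5:**
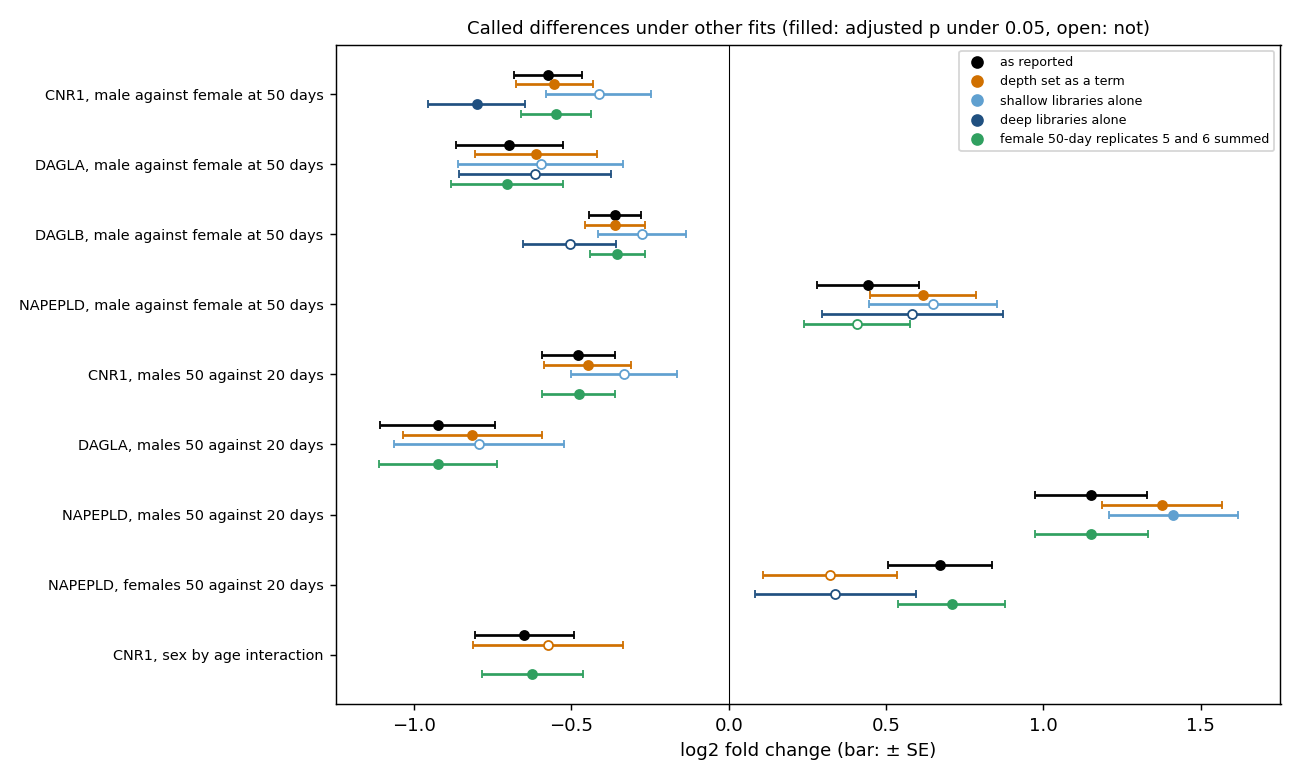
Log2 fold change ± SE (x axis) of each called difference of CNR1, DAGLA, DAGLB and NAPEPLD (y axis) as reported and under other fits, filled where the adjusted p was under 0.05. Every value keeps its sign, and NAPEPLD in males from 20 to 50 days is called in each fit drawn.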

How the data were processed

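Gene-level RNA sequencing of laser-captured RA from 22 libraries in 4 groups was used. The authors deposited whole-number counts of reads for each gene, without normalization. Per the submitters' processing notes, the tools were Trimmomatic 0.36 (trimming), FastQC 0.11.9 (quality) and STAR 2.6.1 (alignment). Which program, strand setting, annotation and build gave the counts is not stated in the sources used here. Of 21955 entries 169 had no gene ID (0.0344% to 0.0739% of counts) and were left out. Symbols, overlaps and autosomal placement came from the RefSeq table of bTaeGut7.mat, which matched 13585 of the 16004 tested genes. Its gene coordinates were used only to find the overlaps.

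Counts were scaled by TMM, filtered with filterByExpr and fitted with edgeR 4.0.16 (R 4.3.3) by a quasi-likelihood model with 1 term per group. Calls used an adjusted p under 0.05. Fold changes are model coefficients, and intervals are 95%. The model was tested on simulated counts with 200 genes changed in 50-day males and no effect of the depth set beyond library size. Such counts cannot show how the model behaves with the depth sets of these data. Alternatives were DESeq2 1.42.0, voom of limma 3.58.1 with quality weights, RLE scaling, no filter or at least 1 CPM in 5 libraries, a replicate block, the depth set (above or below 40 M) as a term or alone, female 50-day replicates 5 and 6 summed, only the groups compared, an adjusted p under 0.01, and each library left out. Counts hold no molecular identifiers, so PCR copies were not removed. Total counts were 16.17 M to 65 M, and p-values measure the spread between birds as labelled.

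The 5 genes were described in every comparison. From each other list up to 3 called genes with the smallest p were named per comparison, of which the text gives the main ones. Likeness used log2(CPM + 1) over genes with a mean of at least 5 CPM and a symbol not starting with LOC. The members and all gene and marker lists were chosen with earlier results of these data known.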

Additional observations from a re-analysis of the deposited data

Results flagged for a closer look

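In 3 of 20 sets of a gene and a group a single library stood apart from the rest of its group. Chance alone flags about 1 in 20 such sets. DAGLA in female 20-day replicate 3 read 67.9 CPM, against 96.9 in the next lowest. Without that library the female age change of DAGLA was -0.43 (edgeR adjusted p 0.0943) and the male age change -0.93 (adjusted p 0.000379).

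MGLL in female 50-day replicate 1 read 637.5 CPM, against 488 in the next highest. Without it the 50-day sex difference of MGLL was 0.05 on the log2 scale (adjusted p 0.791) in place of -0.03. NAPEPLD in male 50-day replicate 3 read 194 CPM, against 122 in the next highest. Without it the male rise with age was 0.97 (adjusted p 0.000147), and the 50-day sex difference 0.26 (adjusted p 0.199).

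CNR1 changed differently with age in the sexes, by -0.65 on the log2 scale, male minus female. With the depth set as a term the adjusted p was 0.326.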

How the results depend on the processing

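The direction held for each called difference of the 5 genes under every alternative run. Outside the fits that leave out a library, the 5 genes' values kept direction and side of the threshold in 241 cases, dropped below the threshold in 15 and turned sign in 9, all 9 for differences that were not called. The other pathway genes named kept both in 425, dropped below it in 76 and turned in 1. Those of the 5 genes were CNR1 at 20 days with voom (-0.0018). For MGLL at 50 days they were 0.00826 with voom, 0.0801 with the depth term, 0.0834 in shallow and 0.0985 in deep libraries, and for MGLL in females with age -0.0211 with the depth term and -0.0436 in deep libraries. For DAGLB in females with age they were 0.0871 in deep libraries and 0.00832 under the stricter filter. HSPA8 at 50 days read 0.0943 in deep libraries. Leaving out each library gave ranges across 0 for CNR1 (-0.0695 to 0.135) and NAPEPLD (-0.124 to 0.0801) at 20 days, MGLL at 50 days (-0.0752 to 0.0544), DAGLB in females with age (-0.0396 to 0.018) and the MGLL interaction (-0.0103 to 0.181).

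Of all genes, 187 were called at 20 days with the depth term. At 50 days 1956 were called in shallow libraries, 999 in deep and 3500 at 0.01. For the male age change it was 2712 with the depth term, 1546 in shallow libraries and 2665 at 0.01, for the female age change 744 with the term, 21 in deep libraries and 1109 at 0.01, and for the interaction 72 with the term and 755 at 0.01. Of the 5 genes, 0 were called in shallow and 1 in deep libraries at 50 days, 1 in shallow libraries for the male age change, 0 for the female age change with the term or in deep libraries, and 0 for the interaction with the term. These depth-set fits hold fewer libraries; for the term the cause was not tested. Leaving out each library gave 287 to 351, 4477 to 5350, 3639 to 4366, 1746 to 2421 and 1506 to 2131 genes over the 5 comparisons in that order, and 0 to 0, 3 to 4, 3 to 3, 1 to 2 and 1 to 1 of the 5 genes.

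After group means were taken out, same-numbered libraries of the compared groups correlated at -0.08 to 0.069. These values give no sign of a pairing by number but cannot exclude one. A replicate block gave 314, 4765, 4051, 1716 and 1764 genes, and 0, 3, 3, 1 and 1 of the 5, with NAPEPLD at 50 days lost (0.38, adjusted p 0.142). Shallow libraries alone could not give the 20-day, female age or interaction contrast, nor deep libraries the 20-day, male age or interaction contrast. The interaction needs all groups, so no fit of fewer groups was made for it. Scaling by RLE moved no median over all genes by 0.1.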
